A study of Mus musculus with 2 samples.

Results

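Transcripts of 9 fatty acid desaturases and elongases (Scd1, Scd2, Fads1, Fads2, Elovl1, Elovl2, Elovl3, Elovl5 and Elovl6) were read in livers of apolipoprotein E-deficient mice that did or did not receive squalene. Members were taken by gene symbol, using probe sets annotated with exactly 1 symbol. All 9 genes were found among 12393 genes on the array, on 17 probe sets. A probe set is a group of short probes on the array that together give 1 signal for a transcript. Each gene is represented by its brightest probe set (highest mean of both log2 signals), and every other one is shown beside it.

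Desaturases place double bonds into fatty acyl-CoA chains, and elongases carry out the rate-limiting condensation step by which the chain grows at the endoplasmic reticulum. In liver, palmitate made by fatty acid synthase is lengthened by Elovl6 and desaturated by Scd1, which yields the oleate used for triglycerides and cholesteryl esters. A separate branch, through Fads2, Elovl5, Fads1 and Elovl2, turns dietary linoleic and alpha-linolenic acids into arachidonic and docosahexaenoic acids, while Elovl1 and Elovl3 extend saturated and monounsaturated chains further.

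The squalene group was a liver pool from male mice whose chow was accompanied by a 1% glycerol drink that carried squalene, a triterpene precursor of cholesterol, at 1 g per kg of body weight each day over 10 weeks. The control group was a liver pool from male mice on the same chow and the same 1% glycerol drink, without squalene, over the same 10 weeks. Both groups lacked apolipoprotein E, which clears remnant lipoproteins from blood, and had the C57BL/6J/OLA129 background with a labelled age of 2 months. Each pool was hybridised to 1 array. The sources used here do not say how many mice each pool held, at what hour livers were taken or whether mice had been fasted, and in whole liver fewer cells of a type and less RNA per cell cannot be told apart.

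With 1 array per pool there was no replicate and no test. Each log2 ratio below is the squalene signal over the control signal and compares these 2 pools only. The SD of the log2 ratio between probe sets of the same gene was 0.80, 0.42 and 0.26 in the dimmest, middle and brightest tertile of mean signal. This SD shows only how far probe sets disagree on the same 2 arrays. It holds no variation between arrays, pools or mice, so it does not give the precision of a ratio. Of the 7330 genes called measured, meaning at or above the array median (41.4 in the squalene pool and 39.9 in the control pool) in at least 1 pool, the median log2 ratio was 0.01. All 18 probe sets for hybridisation spike-ins were lower in the squalene array (median -0.26 on the log2 scale), so that scaling to them would add 0.26 to each ratio below. Hepatocyte markers were bright in both pools, with albumin at 14625.1 in the squalene pool and 16656 in the control pool.

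The members did not move as a group. Scd1 and Elovl6 were higher in the squalene pool and Elovl3 and Scd2 were lower, by a limit of 0.5 on the log2 scale, while Fads1, Fads2, Elovl1, Elovl2 and Elovl5 lay within it. All 9 members were measured, and all 9 lay at or above the array median in both pools. The 2 of 9 members that were higher stand beside 11.3% of all measured genes, and the 2 of 9 that were lower beside 10.4%. Those shares are 825 higher and 765 lower genes as deposited. After scaling to the spike-ins, 1883 of the 7330 measured genes were higher and 372 lower, beside 2 of 9 members higher and 1 lower. The members' median log2 ratio was 0.08, against 0.01 for all measured genes. At a limit of 1.0, only Scd1 was higher (3.07% of measured genes were) and only Elovl3 lower (2.86%). None of the 9 passed the submitters' own screen of a log2 ratio beyond 1.5, which 1.12% of measured genes passed upward and 1.15% downward.

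**Figure D1:**
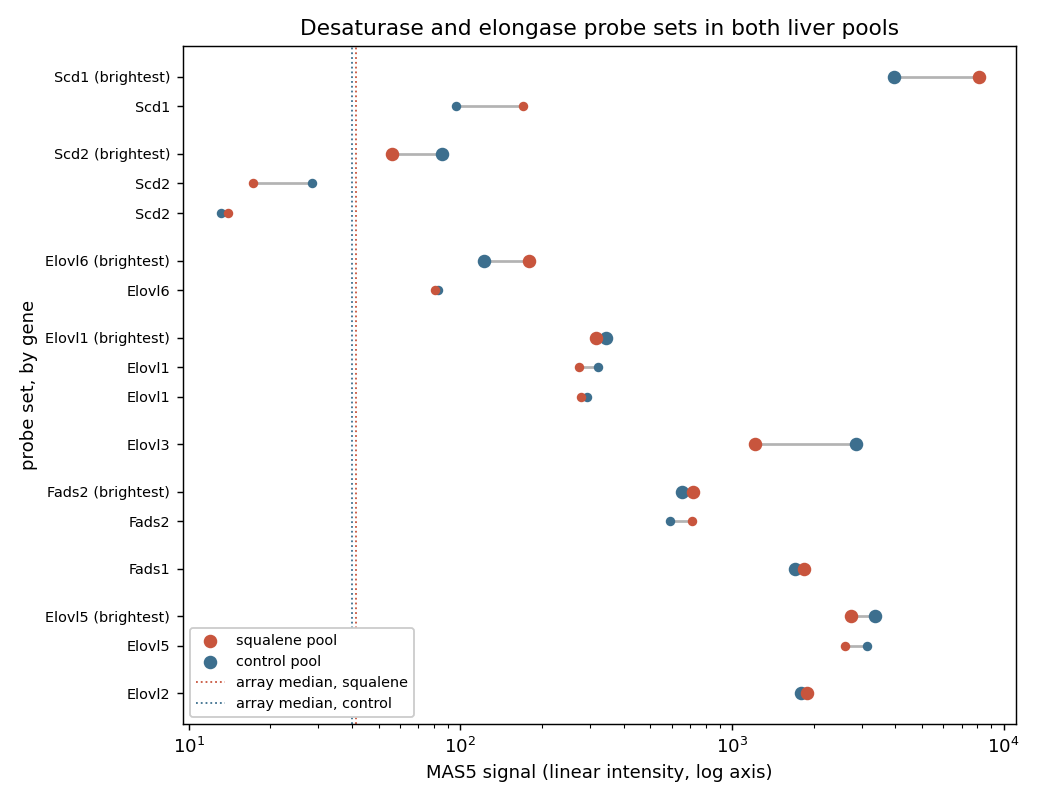
MAS5 signal (linear intensity on a log axis) of the 17 probe sets of the 9 genes, with the squalene pool in red and the control pool in blue. Large points are the probe set that stands for the gene, small points the others, and dotted lines the array medians. Both Scd1 probe sets lie to the right in the squalene pool, at 8091.4 and 169.7, and Elovl3 lies to the left, at 1215.5 against 2869 in the control pool.

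The upstream sequences of 3 members are shown: Elovl6 because it had the highest log2 ratio of the members with an entry in the promoter table, Elovl5 because it had the lowest, though within the limit of 0.5, and Fads2 because it opens the polyunsaturated branch. RefSeq sequences (GRCm38.p6) of the 250 bases before the annotated start were available for 5 of the 9 members, and none was available for Scd1, Scd2, Fads1 or Elovl3. They are written from 5′ to 3′ on the gene's own strand. Capitals mark matches to 6 motifs searched on both strands: the CCAAT box (CCAAT), the E-box (CACGTG), the sterol regulatory element (TCACNCCAC), the GC box (GGGCGG), the nuclear receptor core site (AGGTCA) and the TATA box (TATAAA).
Elovl6, chr3:129532136-129532385, plus strand: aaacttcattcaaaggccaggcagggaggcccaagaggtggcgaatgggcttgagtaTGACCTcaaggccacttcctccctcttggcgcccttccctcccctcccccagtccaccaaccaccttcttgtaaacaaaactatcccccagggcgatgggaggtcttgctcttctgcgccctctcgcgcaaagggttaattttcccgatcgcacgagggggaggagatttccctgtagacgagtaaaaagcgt
Elovl5, chr9:77917115-77917364, plus strand: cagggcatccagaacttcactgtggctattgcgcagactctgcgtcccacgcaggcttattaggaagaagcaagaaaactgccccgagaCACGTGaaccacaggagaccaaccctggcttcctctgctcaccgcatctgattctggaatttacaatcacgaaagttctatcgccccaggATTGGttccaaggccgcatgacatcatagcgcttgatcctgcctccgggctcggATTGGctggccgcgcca
Fads2, chr19:10101504-10101753, minus strand: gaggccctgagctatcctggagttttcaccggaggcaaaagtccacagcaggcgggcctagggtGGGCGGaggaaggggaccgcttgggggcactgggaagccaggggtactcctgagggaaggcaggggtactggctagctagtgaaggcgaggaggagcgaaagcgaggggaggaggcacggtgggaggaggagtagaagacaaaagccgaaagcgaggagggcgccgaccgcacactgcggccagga

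The Elovl6 window held 1 nuclear receptor core site, read on the opposite strand 188 to 193 bases before the start. The Elovl5 window held 1 E-box at 156 to 161 bases and 2 CCAAT boxes on the opposite strand, the nearer at 13 to 17 bases before the start. The Fads2 window held 1 GC box, at 181 to 186 bases. Over all 32851 promoter windows of that length, 33.8% held a CCAAT box, 6.02% an E-box, 32.7% a GC box and 14% a core site. The sterol regulatory element spelled above was in 1.05% of all windows and the TATA box in 12.4%, and neither spelling was found in the windows printed here. None of these matches is a measured binding site.

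Scd1, the main stearoyl-CoA desaturase of mouse liver, gave the highest log2 ratio of the members. Its brighter probe set (1415964_at) read 8091.4 in the squalene pool and 3955.6 in the control pool, a log2 ratio of 1.03. Its other probe set (1415965_at) was far dimmer but ran the same way, at 169.7 in the squalene pool and 96.6 in the control pool, a log2 ratio of 0.81. Among the 2444 measured genes of the brightest tertile, 9 genes, Scd1 included, had a log2 ratio at least as high.

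Scd2, a desaturase of the same reaction that prevails in brain and other tissues outside adult liver, was dim and ran the other way. Its brightest probe set (1415822_at) read 56.1 in the squalene pool and 85.4 in the control pool, a log2 ratio of -0.61. The remaining probe sets lay below the array median in both pools, one with 17.3 in the squalene pool and 28.4 in the control pool (log2 ratio -0.72) and the other with 14 in the squalene pool and 13.1 in the control pool (log2 ratio 0.10). Its ratio was smaller in size than the SD of 0.80 between probe sets at that brightness, and 428 of 2443 genes of the dimmest tertile lay at least as low. Scaled to the spike-ins it was -0.35, within the limit of 0.5. Scd3, a further desaturase of this gene cluster, was below the array median in both pools, at 10.7 in the squalene pool and 11.9 in the control pool. In the RefSeq gene order Scd3, Scd2, Scd4 and Scd1 are consecutive protein-coding genes, and Scd4 was not analysed here. The sources used here do not give the probe sequences, so whether these probe sets share signal among the related transcripts was not tested.

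Elovl3 gave the lowest log2 ratio of the members. This elongase extends saturated and monounsaturated chains, and its transcript is known in mouse liver to cycle over the day and to be more abundant in males. Its single probe set (1420722_at) read 1215.5 in the squalene pool and 2869 in the control pool, a log2 ratio of -1.24. Only 3 of the 2444 genes of the brightest tertile, Elovl3 included, had a log2 ratio as low. No second probe set was there to set beside it.

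Elovl6, which lengthens palmitate to stearate, was higher on the brighter of its probe sets alone. That probe set (1417404_at) read 179.7 in the squalene pool and 122.4 in the control pool, a log2 ratio of 0.55. The other (1417403_at) read 80.7 in the squalene pool and 82.5 in the control pool, a log2 ratio of -0.03, and the mean over both was 0.26. The ratio of the brighter probe set exceeded the limit of 0.5 by a small margin, and 163 of 2443 genes of the middle tertile lay as high.

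Elovl1, which makes very long saturated and monounsaturated chains found in sphingolipids, read close to alike in both pools. Its brightest probe set (1456530_x_at) gave 315.8 in the squalene pool and 342.9 in the control pool. Over its 3 probe sets the log2 ratios were -0.12, -0.23 and -0.07. All 3 were below 0 as deposited, and the brightest turned to 0.14 when scaled to the spike-ins.

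The desaturases of the polyunsaturated branch were close to level as deposited. Fads2, which introduces the first new double bond into linoleic and alpha-linolenic acids, read 720.3 in the squalene pool and 656.7 in the control pool on its brighter probe set (1449325_at), a log2 ratio of 0.13. Its other probe set (1419031_at) read 711.4 in the squalene pool and 591.8 in the control pool, a log2 ratio of 0.27. Fads1, which catalyses the later desaturation that yields arachidonic and eicosapentaenoic acids, read 1849.5 in the squalene pool and 1699.9 in the control pool (1423680_at), a log2 ratio of 0.12. Fads2 and Fads1 are neighbours in the RefSeq gene order, with Fads3 on the other side of Fads2. Their 3 probe sets gave ratios from 0.12 to 0.27, the highest of which was about the SD of 0.26 between probe sets of that brightness. Fads3 was below the array median in both pools, as were 5 of the 6 related desaturases and elongases with a probe set, Scd3 and Fads3 included. The exception was Degs1, a ceramide-forming desaturase, at 1246.1 in the squalene pool and 1337.6 in the control pool (log2 ratio -0.10, and 0.19 on its other probe set).

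Of the polyunsaturated elongases, Elovl5 was slightly lower in the squalene pool and Elovl2 was level, both as deposited. Elovl5, which lengthens the products of Fads2, read 2733 in the squalene pool and 3349.9 in the control pool on one probe set (1437211_x_at). The other (1415840_at) read 2603.5 in the squalene pool and 3134.6 in the control pool. Its log2 ratios were -0.29 and -0.27, which lay closer to each other than to 0, but both were about the size of the SD of 0.26 and within the limit of 0.5. Among genes of the brightest tertile 261 of 2444 lay as low, and scaled to the spike-ins Elovl5 stood at -0.04. Elovl2, which carries out the later elongation steps toward docosahexaenoic acid, read 1890.1 in the squalene pool and 1789.7 in the control pool (1416444_at), a log2 ratio of 0.08. Scaled to the spike-ins Elovl2 stood at 0.34.

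**Figure D2:**
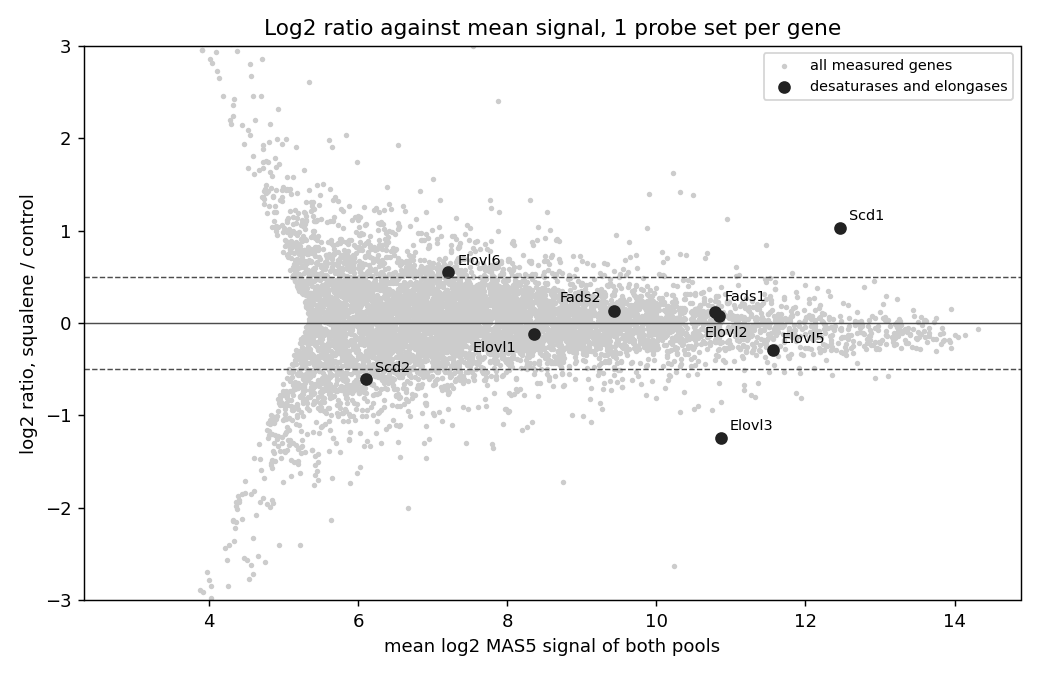
Log2 ratio, squalene over control (vertical axis), against mean log2 MAS5 signal of both pools (horizontal axis), 1 point per measured gene. Grey points are all 7330 measured genes, of which 41 lie beyond the vertical axis, black points are the members, and dashed lines mark log2 ratios of 0.5 and -0.5. Scd1 (1.03) and Elovl3 (-1.24) lie outside the band that holds most bright genes, while Scd2 (-0.61) lies where dim genes scatter widely.

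Differences between members are free of any constant factor by which an array is scaled, spike-in scaling included. The log2 ratio of Scd1 exceeded that of Elovl3 by 2.27, and by 2.05 with the dimmer Scd1 probe set. After quantile normalisation and after loess the difference was 2.35 and 2.32. Scd1 exceeded Scd2 by 1.64, with a range of 0.72 to 1.75 over the 6 pairs of their probe sets. Both ends of that range come from Scd2 probe sets below the array median in both pools. The difference stands beside an SD of 0.80 between probe sets for Scd2 and 0.26 for Scd1. The elongases also diverged. Elovl6 exceeded Elovl3 by 1.79 (1.21 with the dimmer Elovl6 probe set) and Elovl5 by 0.85 (as little as 0.24 over 4 pairs of probe sets), and Elovl1 exceeded Elovl3 by 1.12 (1.01 to 1.17 over 3 pairs). In the polyunsaturated branch Fads1 stood above Elovl5 by 0.42, Fads2 by 0.43 and Elovl2 by 0.37, each in all pairs of probe sets. The differences have no replicate error. Those of Fads1, Fads2 and Elovl2 from Elovl5, at 0.37 to 0.43, stand beside an SD of 0.26 between probe sets for each gene of the pair. That of Elovl6 from Elovl5 stands beside an SD of 0.42 for Elovl6 and 0.26 for Elovl5.

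Other genes that work with these enzymes were set beside them in lists chosen with earlier results of these data known. The condensation step of an elongase is followed by reduction, dehydration and a second reduction, and no partner that reached the array median in both pools passed the limit of 0.5. Hsd17b12, the ketoacyl-CoA reductase, read 1020.2 in the squalene pool and 1145.7 in the control pool (log2 ratio -0.17), and Tecr, the enoyl-CoA reductase, read 1345.9 in the squalene pool and 1290.9 in the control pool (0.06). Of the 6 measured partners 0 were higher and 1 was lower, with a median of -0.13. The lower one was the dehydratase gene Hacd4, at 33.5 in the squalene pool and 87.9 in the control pool (-1.39), below the array median in the squalene pool. Hacd1, another dehydratase gene, stood at -0.28.

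Desaturases draw electrons from cytochrome b5 and its reductase. Cyb5a, the main cytochrome b5, read 10376.1 in the squalene pool and 11331.3 in the control pool (log2 ratio -0.13), and Cyb5r3, the reductase, read 2017.2 in the squalene pool and 1642.3 in the control pool (0.30). The other probe sets of Cyb5r3 gave 0.00, 0.12 and, at signals below the median, -0.71. Of 5 measured genes 0 were higher and 0 lower, with a median of 0.29, and Cyb5r4 (0.44) and Cyb5r1 (0.29), further reductase genes, were with Cyb5r3 the farthest from 0. The median was -0.01 when ratios were averaged over probe sets and 0.01 using the probe set nearest 0, and scaled to the spike-ins 3 of 5 were higher (median 0.55).

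Genes that supply malonyl-CoA and palmitate, the substrates of the elongases, read higher in part. Thrsp, a lipogenic nuclear protein, read 2094.9 in the squalene pool and 676.9 in the control pool (log2 ratio 1.63), and its other probe set gave 1.68. Acss2, which activates acetate, stood at 0.51, with 0.39 on its other probe set, and Acacb, an acetyl-CoA carboxylase, at 0.40. Acaca, the other acetyl-CoA carboxylase gene, was below the array median in both pools, at 24.4 in the squalene pool and 22.2 in the control pool. Acly was the 1 measured gene of this list below 0, at -0.04. Fasn, the fatty acid synthase itself, read 226.9 in the squalene pool and 211.4 in the control pool (0.10). Of 6 measured genes 2 were higher and 0 lower, with a median of 0.36. The count of higher genes was 4 when scaled to the spike-ins, and 1 with loess, with ratios averaged over probe sets, using the probe set nearest 0 and with plain-suffix probe sets. Acyl-CoA synthetases were represented by Acsl4 (0.46) and Acsl5 (0.03), with 0 of these 2 beyond the limit (1 when scaled to the spike-ins or averaged over probe sets) and a median of 0.25. Enzymes that place the finished chains into lipids, such as Dgat2 (0.19), Gpam (0.20) and Mboat7 (-0.15), had 0 of 6 measured genes beyond the limit on either side and a median of 0.06.

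**Figure D3:**
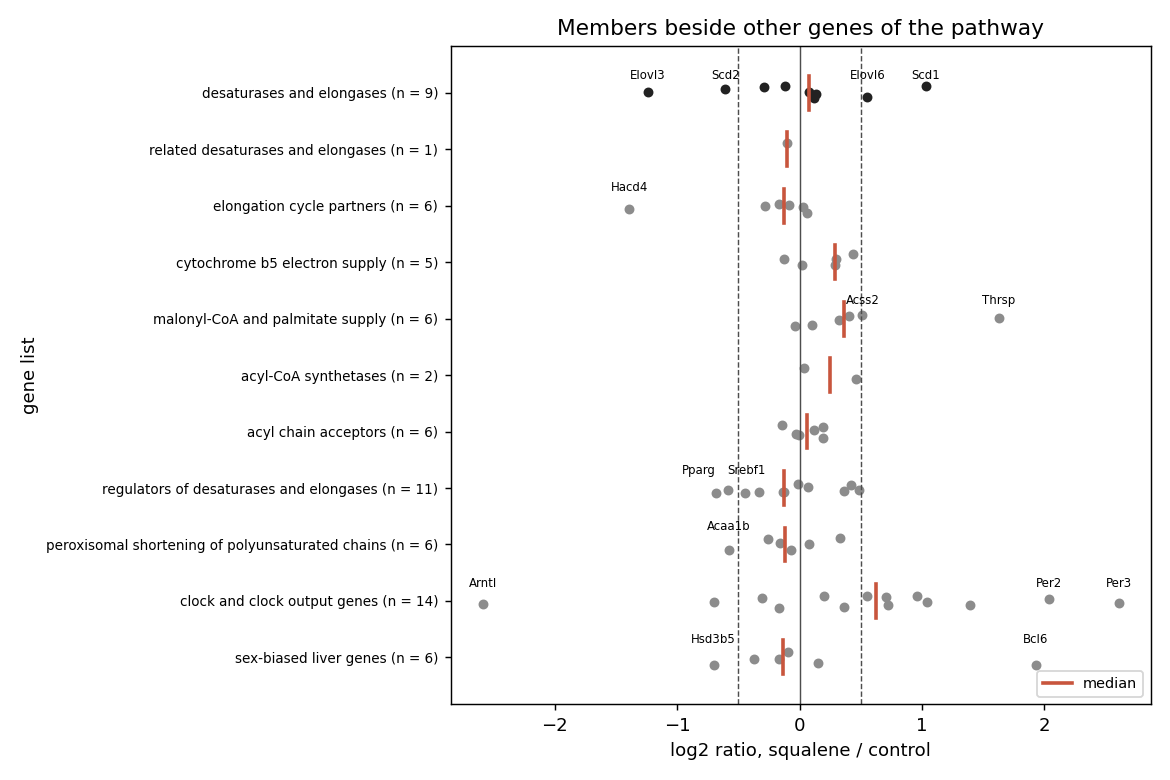
Log2 ratio, squalene over control (horizontal axis), for the members (black) and for other measured genes of the pathway (grey), with each list's median as a red line and its number of measured genes in brackets. Dashed lines mark log2 ratios of 0.5 and -0.5, and named points are members past the limit and the farthest genes past it in each other list. The members spread from -1.24 to 1.03 around a median of 0.08, and the clock list has the highest median, 0.63.

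Among transcripts of the factors known to act on these genes, Srebf1 ran opposite to Scd1. Srebf1, which encodes the lipogenic SREBP-1 and drives Scd1 and Elovl6 transcription in liver, read 307.9 in the squalene pool and 462.4 in the control pool on its single probe set, a log2 ratio of -0.59. Pparg, at 35.1 in the squalene pool and 56.3 in the control pool, stood at -0.68 but was below the array median in the squalene pool. Mlx, the partner of the carbohydrate-responsive factor ChREBP, was at 0.49, with 0.66 on its other probe set. Mlxipl, which encodes ChREBP itself, ran the other way within the limit. It read 354.6 in the squalene pool and 482.2 in the control pool (-0.44). Of 11 measured regulators 0 were higher and 2 lower, with a median of -0.13. The 10 at or above the array median in both pools, which leave Pparg out, had 0 higher and 1 lower, with a median of -0.07. Scaled to the spike-ins 3 were higher and 0 lower, with a median of 0.13 and Srebf1 at -0.33, and with plain-suffix probe sets, which leave Srebf1 out, 0 were lower and the median was 0.22. Abundance of SREBP-1 mRNA does not show the level of the cleaved active protein, which was not measured.

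The peroxisomal enzymes that shorten long polyunsaturated chains, the last step toward docosahexaenoic acid, had 0 of 6 measured genes higher and 1 lower, with a median of -0.12. Acaa1b, a peroxisomal thiolase, was the lower one, at 7252.1 in the squalene pool and 10804.4 in the control pool (log2 ratio -0.58). That call was lost, leaving 0 lower, with quantile normalisation, loess and scaling to the spike-ins, the last of which gave 1 higher. Acaa1a, its close relative, stood at 0.33 and the import receptor gene Pex5 at -0.26, with 0.07 and 0.11 on their other probe sets. The sequences of the thiolase genes are similar, and whether their probe sets share signal was not tested.

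Several other transcripts also differed between the pools, and whether they bear on the members' ratios was not tested. Of 14 measured clock and clock output genes 8 were higher and 2 lower, with a median of 0.63. Of these, 4 passed the filter through 1 pool alone, and the 10 genes at or above the median in both pools had 6 higher and 0 lower. The 6, each on its brightest probe set, were Dbp (1.39), Hlf (1.04), Cry1 (0.96), Tef (0.72), Nr1d2 (0.70) and Cry2 (0.55). With the probe set of smallest ratio 4 were higher and the median was 0.28. Per3 stood at 2.61 and Per2 at 2.04 on their brightest probe sets, both dim in the control pool, and 1 further probe set of each, below the median, lay below 0 (-0.31 for Per3 and -2.41 for Per2). Arntl was at -2.59, with a squalene signal of 11 against 66.2 in the control pool. Per3, Per2 and Arntl each reached the array median in 1 pool alone, so that their direction was fixed by the filter. Nr1d1, which encodes the repressor REV-ERB alpha, read 96.2 in the squalene pool and 74.8 in the control pool (0.36). Of 6 measured genes with a sex-biased level in mouse liver, Elovl3 left aside, 1 was higher and 1 lower (0 lower when scaled to the spike-ins), with a median of -0.13. Hsd3b5 stood at -0.70, Slco1a1 at -0.37 and the repressor gene Bcl6 at 1.93. The rest of this list, Cyp4a12a (0.16), Cyp7b1 (-0.09) and Cyp2d9 (-0.17), lay within the limit of 0.5.

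Markers of other liver cells were also read, since Scd2 and Elovl1 are not restricted to hepatocytes. All 12 measured markers of macrophages and Kupffer cells lay below 0 as deposited, of which 8 were lower by the limit, with a median of -0.68. Of the 11 at or above the array median in both pools 7 were lower, with a median of -0.68. Adgre1 was nearest to 0, at -0.08, and stood at 0.18 when scaled to the spike-ins. The summed signal of the 12 was 4520.6 in the squalene pool and 6964.1 in the control pool, and Lyz2 (-1.07) and Msr1 (-1.33) were farthest from 0. Stellate cell and matrix genes had 0 higher and 4 lower of 6, with a median of -0.70 and summed signals of 3069.2 in the squalene pool and 3396.4 in the control pool. Lum (-0.88) and Col1a2 (-0.71, and -0.39 on a probe set below the median) were farthest from 0. The brightest of the 6 were level: Dcn at 2415 in the squalene pool and 2540.5 in the control pool (-0.07), and Rgs5 at 360.8 and 358.7 (0.01). Among genes of this list below the median in both pools, Lrat (1.95) and Des (0.51) ran the other way and Col1a1 (-1.65) did not. Scaled to the spike-ins, 3 of 12 macrophage markers (median -0.42) and 1 of 6 stellate cell and matrix genes (median -0.44) were lower. Endothelial markers had 1 higher, Stab1 (0.53), and 1 lower, Clec4g (-0.73, and 0.72 on a probe set below the median), of 8 (median -0.09; summed signals 1309.2 in the squalene pool and 1685 in the control pool). Hepatocytes are the main liver source of Scd1 and Elovl3, and their markers had 0 of 9 beyond the limit and a median of 0.02, with summed signals of 107010 in the squalene pool and 108535 in the control pool, and Tat (0.45) and Ttr (-0.21) farthest from 0.

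Adipocytes also make Scd1 and, when brown, Elovl3. Of their 6 markers with a probe set only Fabp4 was measured, at 164.3 in the squalene pool and 184.7 in the control pool (log2 ratio -0.17). A dimmer Fabp4 probe set ran the other way, at 72.3 in the squalene pool and 48.3 in the control pool (0.58). Blood cell markers had 0 of 2 measured genes beyond the limit, Hbb-b2 (0.44) and Alas2 (-0.47) (summed signals 180.2 in the squalene pool and 180.8 in the control pool). No lymphocyte marker reached the array median in both pools. Klrk1 (-3.98) and Ccl5 (-2.44) reached it in the control pool alone, so that their direction was fixed by the filter, and among markers below it in both pools Cd3e (1.52) and Nkg7 (1.02) ran the other way. Of 5 cholangiocyte markers 0 were measured. No marker on any of these lists was listed at a signal of 0.

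**Figure D4:**
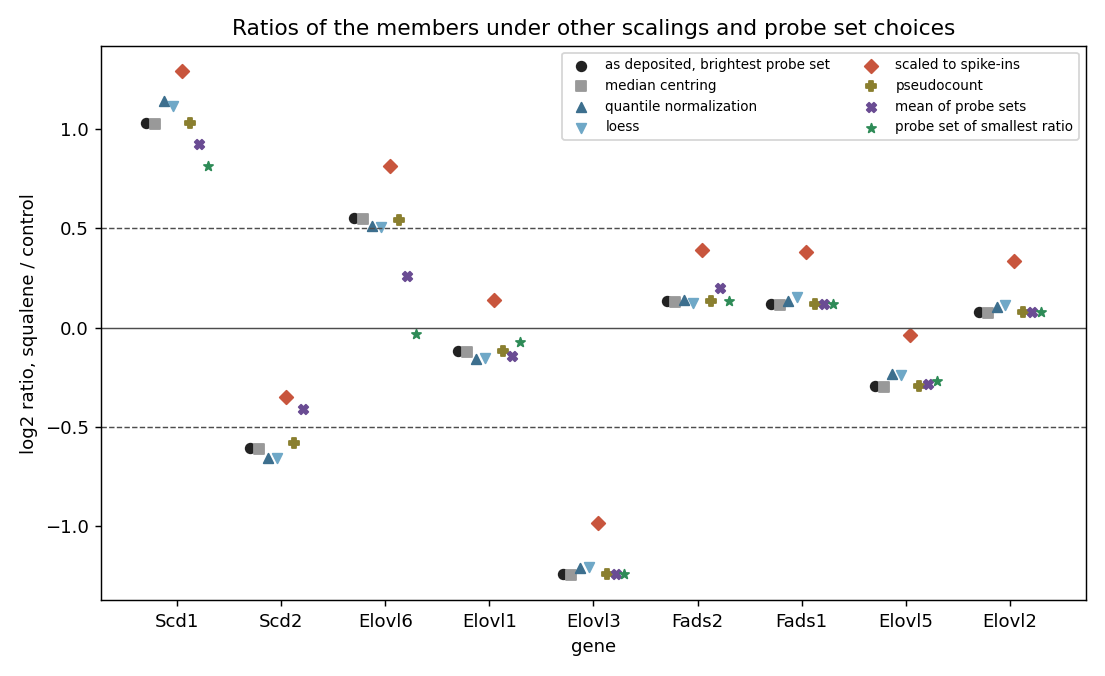
Log2 ratio, squalene over control (vertical axis), for each member (horizontal axis) as deposited and under 7 alternatives (other scalings, a pseudocount, other choices of probe set), each with its own symbol, with dashed lines at 0.5 and -0.5. Scd1 stays between 0.81 and 1.29 and Elovl3 between -1.24 and -0.98, while Elovl6 runs from -0.03 to 0.81. Elovl3 has 1 probe set, so the choice of probe set could not change its value.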

How the data were processed

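Liver RNA of 2 pools was measured on 1 Affymetrix mouse array each. The authors deposited 1 intensity per probe set, on a linear scale, which per the submitters' processing notes came from MAS5 (version not given in the sources used). Both arrays had a 2%-trimmed mean near 200.1. Sample titles gave the groups, since both samples carry one growth protocol text. No genome build is named for the arrays.

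Of 22690 probe sets, 64 were array controls. GEO's platform annotation gave 20380 of the rest 1 symbol, 691 several and 1555 none; 20351 of the single-symbol ones were found by Entrez number in RefSeq and 0 symbols changed. Log2 ratios were taken without a pseudocount. With 1 array per group no p-value was computed, and the number of arrays limits the precision. The members and lists were chosen with earlier results of these data known. Named were all members, the 3 genes of each pathway list (2 of each marker list) farthest from 0, and a fixed set (Srebf1, Fasn, Hsd17b12, Tecr, Cyb5a, Cyb5r3, Nr1d1, Arntl, Scd3). Alb, Fads3, Cd3e, Nkg7, Adgre1, Dcn, Rgs5, Cyp4a12a, Cyp7b1, Cyp2d9 and list genes without values were added afterwards. So were Mlxipl, Dbp, Hlf, Cry1, Tef, Nr1d2, Cry2, Lrat, Des, Col1a1, Acaca and Acly. The alternatives were median centring, quantile normalisation, loess with limma 3.58.1 (R 4.3.3, span 0.3), spike-in scaling, a pseudocount of 3 (the 10th percentile of signals), a floor at the median, other filters, other probe set choices, and limits of 1.0 and 1.5. Python 3.11.15, numpy 2.4.6, pandas 2.3.3, scipy 1.17.1 and matplotlib 3.10.9 were used. Steps were tested on simulated data.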

Additional observations from a re-analysis of the deposited data

How the results depend on the processing

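Scd1 and Elovl3 kept their direction and stayed beyond 0.5 in all 12 alternatives run for them, at 0.81 to 1.29 for Scd1 and -1.24 to -0.98 for Elovl3. Several of these alternatives could not change the values. The floor and the filters left both genes as they were, and Elovl3, with 1 probe set, was also untouched by the choice of probe set. The scalings and the pseudocount reuse the same 2 arrays, so none of the alternatives stands in for a replicate. Elovl6, at 0.55 as reported, was -0.032 with the probe set of smallest ratio, by that setting's own construction. The count of higher members, 2 as reported, was 1 when ratios were averaged over probe sets, with the probe set of smallest ratio and at a limit of 1.0, and 0 at a limit of 1.5. The count of lower members, 2 as reported, was 1 in those same 3 settings, with scaling to the spike-ins and with a 75th percentile filter, which removes Scd2, and 0 at a limit of 1.5. Scd2 had no value in 2 of its 12 alternatives because its probe set fell below the filter, and Elovl1 had none with plain-suffix probe sets. The members' median lay between 0.02 and 0.34. Among all genes, the 825 higher and 765 lower became 1883 and 372 with spike-in scaling, 2666 and 2454 with no filter, 507 and 410 with both pools at or above the median, 225 and 182 with the 75th percentile filter, 225 and 210 at a limit of 1.0, and 82 and 84 at 1.5. With spike-in scaling the list medians of the elongation partners, regulators, peroxisomal enzymes and sex-biased genes became 0.13, 0.13, 0.14 and 0.13. Scd2 is limited by dim probe sets, of which 2 of 3 lay below the array median in both pools. No paired analysis was possible because each pool has 1 array.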
